A study of Mus musculus with 16 samples.

Results

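Of the 12013 regions bound by PCGF5 in mouse neural progenitor cells (NPCs), 4278 (35.6%) lay in intergenic sequence and carried neither of the Polycomb marks H2AK119ub1 and H3K27me3. These 4278 intergenic peaks were chosen by a rule on measured values and on position. A peak of the NPC PCGF5 list entered when it shared no base with a peak of the wild-type NPC H2AK119ub1 or H3K27me3 list, when its centre lay more than 2500 bp from every protein-coding transcript start, and when that centre lay outside all protein-coding genes of the GENCODE M1 annotation (genome build mm9). The absence of both marks in wild-type NPCs and the distance from gene starts were therefore set by the choice and are not results. All 10 peak lists of the series together held 86279 peaks.

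PCGF5 is one of the PCGF proteins, each of which joins RING1A or RING1B to form a variant of Polycomb repressive complex 1 (PRC1), the enzyme that places the single ubiquitin of the mark H2AK119ub1 on histone H2A. PRC2 places H3K27me3, a trimethylated lysine of histone H3, and both marks are known for covering CpG islands of silent developmental genes in embryonic stem cells. CpG islands are stretches of DNA in which the CpG dinucleotide, lost from most of the mammalian genome, has been kept.

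The study asked what PCGF5 does when mouse embryonic stem cells (mESCs) become neural cells. It measured both histone marks by chromatin immunoprecipitation and sequencing (ChIP-seq) in wild-type and PCGF5-depleted (shPCGF5) mESCs and NPCs, and PCGF5 itself in mESCs and NPCs. All cells came from 46C mESCs, a line with a GFP reporter at Sox1, and NPCs were collected on day 6 of neural differentiation in suspension. Of the 16 libraries, 10 had a peak list, 6 were inputs, and every group had 1 library. The depleted cells carried a short hairpin RNA against Pcgf5 and, per the methods of the study, were picked as puromycin-resistant clones, so a group can stand for 1 clone. PCGF5 was captured through a Flag tag of 3 copies knocked into the Pcgf5 gene, although the labels give the genotype of these cells as wild type. With 1 library per group no condition was tested, peaks were not treated as replicates, and intervals below are 95% intervals for counting error alone.

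Individual peaks are shown first, as examples only. Further below, the base composition of all the intergenic peaks is compared with that of the DNA around them. In the following sequences of mm9 (plus strand, 5′ to 3′) capitals mark runs of 4 or more G or of 4 or more C. The first 3 are from among the 10 highest-scoring peaks outside the crowded windows described below. They lay 776362 bp from any protein-coding start, 40261 bp downstream of the start of Cdca7, a cell cycle gene, and 9184 bp downstream of that of Cad, which encodes the enzyme of the first steps of pyrimidine synthesis. The last 2 are whole peaks near Lhx2, a LIM homeobox regulator of forebrain and eye development, and Kdr, the VEGF receptor of endothelial cells and their mesodermal precursors.
chr11:13324341-13324543: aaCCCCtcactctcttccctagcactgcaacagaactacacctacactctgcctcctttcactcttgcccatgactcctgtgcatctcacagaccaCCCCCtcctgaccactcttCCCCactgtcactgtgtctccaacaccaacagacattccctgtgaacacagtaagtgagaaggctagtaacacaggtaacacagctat
chr2:72354421-72354720 (Cdca7): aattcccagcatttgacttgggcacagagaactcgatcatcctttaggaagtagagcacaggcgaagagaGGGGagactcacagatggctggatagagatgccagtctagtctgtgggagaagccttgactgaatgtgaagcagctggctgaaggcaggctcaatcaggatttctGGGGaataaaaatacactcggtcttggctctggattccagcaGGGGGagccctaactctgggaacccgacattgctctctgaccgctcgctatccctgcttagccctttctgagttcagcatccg
chr5:31385524-31385823 (Cad): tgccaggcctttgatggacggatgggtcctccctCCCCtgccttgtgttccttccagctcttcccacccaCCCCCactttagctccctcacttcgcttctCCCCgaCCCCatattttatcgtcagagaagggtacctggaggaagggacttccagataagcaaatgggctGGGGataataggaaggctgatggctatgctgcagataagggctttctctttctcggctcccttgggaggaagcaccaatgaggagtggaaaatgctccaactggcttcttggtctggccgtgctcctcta
chr2:38228084-38228317 (Lhx2): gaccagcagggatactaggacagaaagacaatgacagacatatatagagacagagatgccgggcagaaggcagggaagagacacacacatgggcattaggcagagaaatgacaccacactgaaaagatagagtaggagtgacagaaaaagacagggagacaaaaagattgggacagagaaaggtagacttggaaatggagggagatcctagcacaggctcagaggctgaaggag
chr5:76327143-76327364 (Kdr): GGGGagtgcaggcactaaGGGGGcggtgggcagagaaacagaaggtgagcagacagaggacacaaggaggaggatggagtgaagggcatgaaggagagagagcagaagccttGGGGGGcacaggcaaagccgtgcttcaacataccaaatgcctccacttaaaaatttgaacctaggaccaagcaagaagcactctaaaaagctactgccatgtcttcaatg
The chr11 sequence held 0 CpG dinucleotides in 203 bp at 51.2% GC, with 3 runs of C and none of G. The Cdca7 sequence held 7 CpG in 300 bp and 3 runs of G, and the Cad sequence 6 CpG, 4 runs of C and 1 of G. The Lhx2 sequence held no such run, but 73.9% of its plus strand was A or G. The Kdr sequence had 2 CpG, 3 runs of G with a longest run of 6, and 67.1% A or G.

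Most of the intergenic peaks were weak and narrow. Fold enrichment over the local background, as the peak caller gives it, had a median of 2.24 with quartiles of 2.03 and 2.61, and ranged from 1.10 to 119.3. The median width was 341 bp, with quartiles of 223 and 615 bp and extremes of 172 and 5674 bp. PCGF5 peaks without a mark inside introns had nearly the same values, a median fold of 2.24 and a median width of 345 bp, whereas unmarked peaks at promoters were wider, at 579 bp, with a median fold of 2.18. The peaks that carried a mark had a median width of 727 bp and a median fold of 2.19. Over all 12013 PCGF5 peaks of NPCs the medians were 412 bp and 2.22, so a low fold was not particular to the intergenic peaks. A fold of 3 or more was reached by 583 intergenic peaks (13.6%), a fold of 5 or more by 133 and a fold of 8 or more by 69. The 4278 peaks covered 2.02 Mb of the 6.96 Mb under all PCGF5 peaks of NPCs, and 2135 of them (49.9%) stood in the higher-scoring 50% of that list.

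A few stretches of the genome held many strong peaks and were treated apart. Windows of 5 Mb with at least 5 PCGF5 peaks of a fold of 8 or more, called high-fold windows here, numbered 7, of which 4 were on chromosome 11 and 1 each on chromosomes 2, 9 and 15. They held 181 intergenic peaks with a median fold of 5.23, among them 67 of the 69 with a fold of 8 or more, while the 4097 peaks outside had a median fold of 2.22, a contrast that the definition of the windows largely sets. The 10 highest-scoring intergenic peaks all lay in these windows. The first, at chr2:179642317-179642785, had a fold of 119.3 and lay 13937 bp downstream of the start of Gm10711. The next 3, with folds of 35.6, 30.1 and 24.2, lay at chr9:47162975-47163150, chr9:47171118-47171489 and chr9:47160643-47161468, upstream of Cadm1, which encodes a cell adhesion molecule of the immunoglobulin family. The fifth, at chr15:84608633-84609111, had a fold of 26.6, near Arhgap8, and the others, with folds from 21.5 to 24.8, lay near Lsm14b and upstream of Spred2, which encodes an inhibitor of Ras to MAP kinase signalling.

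Outside the windows the 10 highest-scoring peaks had folds from 1.52 to 9.22. The highest was the chr11 peak whose sequence is given above, with a fold of 9.22 and its nearest protein-coding start 776362 bp away. The Cdca7 peak (chr2:72353975-72355166) had a fold of 7.66 and the peak near Samd9l (chr6:3273072-3273491) one of 8.64. A pair near Cad had folds of 7.36 and 7.47, and a pair downstream of Sec22b, a SNARE protein of vesicle transport, had folds of 7.47 and 6.91. The others were near Hsp90aa1, the stress-inducible HSP90, with a fold of 7.38, near Zfp827 with 7.31, and near Sept5, where the fold was 1.52 at a −log10 q-value of 31.8. The 5 widest peaks, from 4125 to 5674 bp, were weak, with folds from 1.86 to 2.096. They lay near Grm4, Glp1r, Cuta, Gm16387 and Alox5ap, and 3 of the 5 were on chromosome 17.

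The peaks were concentrated in the neighbourhood of genes, even beyond the 2500 bp that the rule set. They were compared with eligible sequence, the 1516 Mb of the genome in which a peak centre could have met the rule. Repeated DNA was not left out of it. The part of mapping and of GC content in comparisons with it was not tested. Between 2.5 and 10 kb from a start lay 18.5% of the peaks and 8.81% of eligible sequence, a ratio of 2.098. The ratio was 1.62 from 10 to 50 kb and 1.15 from 50 to 100 kb, then fell to 0.570 from 100 to 500 kb. Beyond 500 kb lay 3.20% of the peaks and 15.0% of eligible sequence, a ratio of 0.214. The median distance to a start was 35222 bp. At the 2500 bp limit, the nearest peaks inside the rule were 2503, 2512 and 2512 bp from the starts of Zfand3, E130012A19Rik and Plekho2, with folds of 2.69, 1.87 and 2.42. The nearest outside it were 2495, 2485 and 2480 bp from those of Csrnp1, Purb and Cd63, with folds of 2.21, 17.2 and 2.15, the second of them in a high-fold window.

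**Figure D1:**
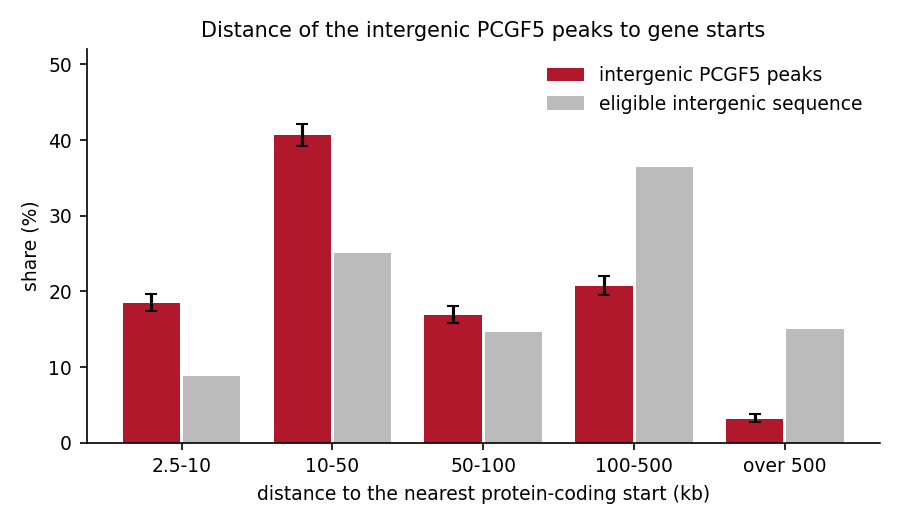
Share of the 4278 intergenic PCGF5 peaks (red bars, with 95% Wilson intervals) and of eligible intergenic sequence (grey bars), in percent, by distance in kb to the nearest protein-coding transcript start. The red bar is above the grey one in the 3 classes up to 100 kb and below it in the 2 classes beyond.

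A similar gradient was seen around the Polycomb marks that the peaks themselves lacked. A wild-type NPC peak of H2AK119ub1 or H3K27me3 lay within 5 kb of 6.17% of the intergenic peaks and of 1.78% of eligible sequence. Within 10 kb the shares were 11.8% and 3.61%, and within 50 kb 35.6% and 14.7%. A mark lay within 1 kb of 52 peaks (1.22%), for which no share of eligible sequence was computed, and the median gap to a mark was 91757 bp. Distance to a gene start and distance to a mark were not separated here.

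Non-coding genes lay under a minority of the peaks. The centre of 259 peaks (6.05%, 5.38 to 6.81) was inside a non-coding gene, against 3.83% of eligible sequence. Processed transcripts accounted for 137 of them and lincRNAs for 106. The peaks closest to a non-coding start were 12 bp from those of Gm12762 and of the miRNA gene AL603804.2, 15 bp from that of Gm11729 and 21 bp from that of the lincRNA Gm11974, with folds of 2.29, 1.73, 2.33 and 8.68, the last in a high-fold window.

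Chromosomes differed widely. There were 2.82 intergenic peaks per Mb of eligible sequence in all, and over the 19 autosomes the density ran from 1.15 on chromosome 16 (68 peaks) to 6.88 on chromosome 11 (406 peaks). Without the peaks in high-fold windows chromosome 11 had 4.83 per Mb and was still the highest, followed by chromosome 7 with 4.53. The X chromosome held 3 intergenic peaks in 115 Mb, or 0.0261 per Mb, and the Y chromosome 0. The X had 26 PCGF5 peaks of any kind, of which 17 were at promoters without a mark, beside 221 peaks in the wild-type NPC H3K27me3 list. The density followed the GC content of eligible sequence across the 19 autosomes, with Pearson's r of 0.83 and Spearman's rho of 0.84 as a description of points from 1 library. Without chromosomes 3 and 11, the farthest from the median GC content, r was 0.76, and without the peaks in high-fold windows it was 0.81. The part of GC content in these densities was not tested.

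**Figure D2:**
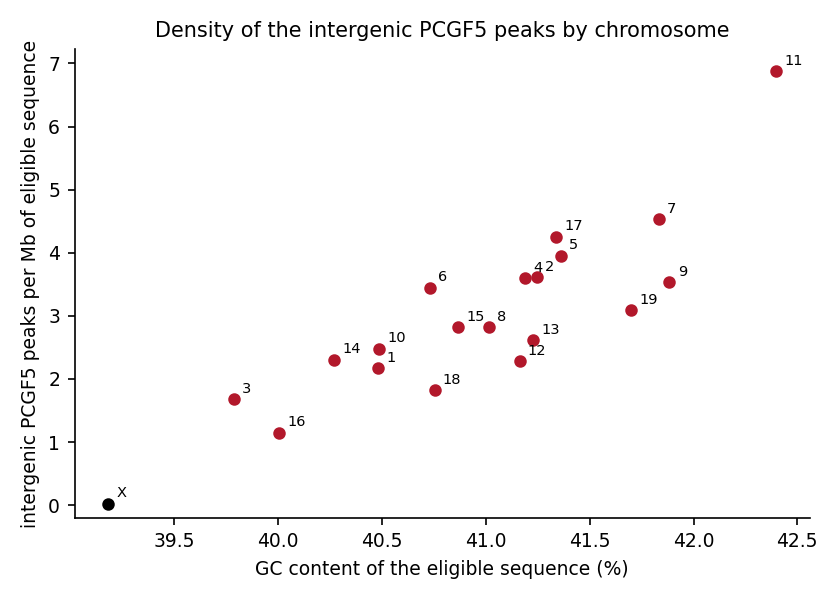
Intergenic PCGF5 peaks per Mb of eligible sequence against the GC content of that sequence in percent, 1 point per chromosome (autosomes in red, X in black; Y, with 0 peaks, is left out). Chromosome 11 is highest at 6.88 per Mb and X lowest at 0.0261.

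Spacing was measured between peaks of the same class. Another intergenic peak lay within 10 kb of 27.4% (26.1 to 28.7) of them, compared with 31.5% for intronic peaks, 21.4% for promoter peaks, 24.8% for marked peaks and 10.6% for exonic ones, each counted within its own class, so that class size and territory enter these shares. The 2 densest stretches under 100 kb each held 11 peaks. The first, chr7:38829316-38905861 between C80913 and Ccne1, the cyclin of entry into S phase, had folds from 1.65 to 3.34. The second, chr11:19679662-19749438 upstream of Spred2, had folds from 10.7 to 23.4 and lay in a high-fold window. The next 3 held 10 peaks each, at chr5:149852501-149952205 near Hmgb1 and Uspl1, at chr6:84375014-84467765 near Cyp26b1, which encodes an enzyme that degrades retinoic acid, and at chr9:46792268-46866643 near Cadm1. Their median folds were 2.09, 2.57 and 2.27, and the last was in a high-fold window.

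Base composition had not entered the rule. The 300 bp at the peak centre had a median GC content of 51.0% (quartiles 48.0 and 54.3), and windows of the same length 5 kb to either side, genic or not, had 46.0% (41.0 and 50.3). The centre was richer in GC than the mean of its own flanks in 3418 of the 4278 peaks (79.9%) and richer than both flanks in 2668 (62.4%). The rise was local, and mean GC content fell from 51.2% in the central 100 bp to 45.4% at 3 kb on one side and 45.6% on the other. Intronic peaks were similar, with a median of 52%, and both classes stayed below promoter peaks (59.0%) and marked peaks (59.7%).

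The CpG content of the peaks was low for their base composition. Mean CpG frequency was 1.14 per 100 bp in the central 100 bp and 1.06 and 1.07 at 3 kb on either side. The ratio of CpG observed to CpG expected from the C and G content had a median of 0.145 (95% interval of the median 0.141 to 0.151) at the intergenic peaks and of 0.174 (0.170 to 0.178) in their flanks. It was also lower at intronic peaks, with 0.161, than in their flanks, with 0.192. At promoter peaks it was 0.592 and at marked peaks 0.565. A window with more than 55% GC and a ratio above 0.6, a limit for CpG-rich sequence that was set after the medians had been seen, was found at 82 intergenic peaks (1.92%, 1.55 to 2.37), at 0.601% of intronic, 45.5% of promoter and 42.0% of marked peaks. The 82 CpG-rich intergenic peaks were wider than the remaining 4196, with a median of 507 bp against 338 bp, while the median fold was 2.14 against 2.24. A non-coding start lay within 2500 bp of 23 of the 82 (28.0%, 19.5 to 38.6) and of 4.53% of the others (3.94 to 5.20).

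**Figure D3:**
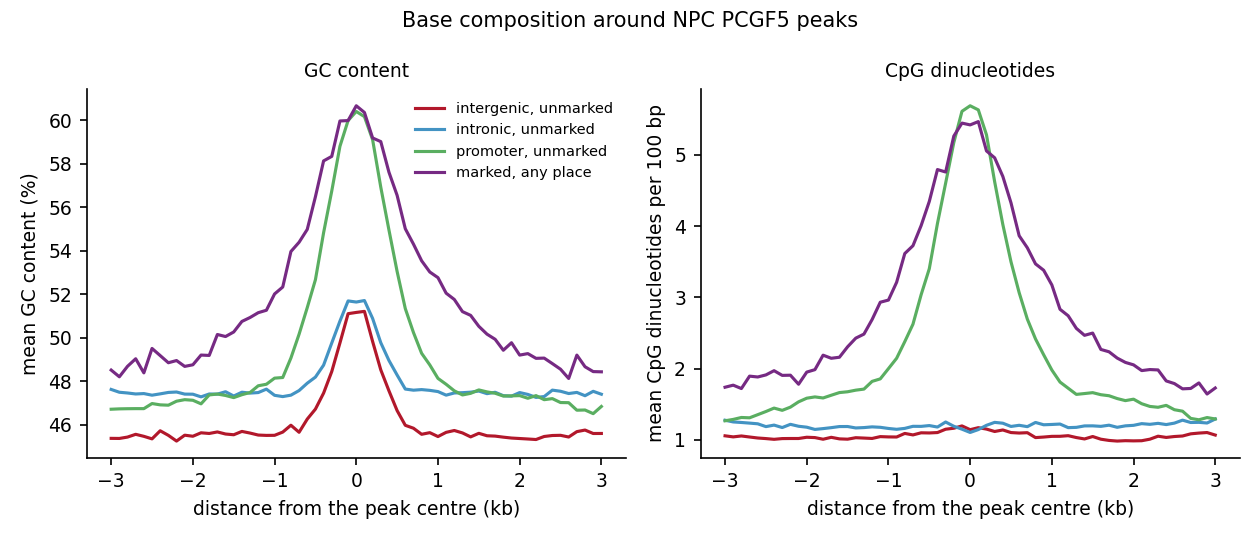
Mean GC content in percent (left) and mean number of CpG dinucleotides per 100 bp (right) in bins of 100 bp, by distance in kb from the centre of NPC PCGF5 peaks, for 4 classes of peak. GC content of the intergenic peaks (red) rises to 51.2% at the centre, while their CpG frequency is 1.14 per 100 bp at the centre and 1.06 at 3 kb on the left, under the 5.69 at promoter peaks (green) and the 5.42 at marked peaks (purple).

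The short sequences most raised over flanks were rich in G on one strand and in C on the other. Among the 2080 sequences of 6 bases (a sequence and its reverse complement counted as one), AGGGGG was raised most, present in 31.4% of the intergenic peaks and 15.5% of flanks. GGGGGA followed with 35.0% and 18%, CCCCTC with 37.6% and 19.9% and CCCTCC with 45.4% and 24.6%. All 20 of the most raised 6-mers lacked either G or C on a given strand, as did 33.7% of all 6-mers, and 13 of the 20 held only A and G on one strand, as did 3.08% of all. All 20 of the most lowered ones held A and T alone, and the lowest, ATTAAA, was in 8.93% of peaks and 24.2% of flanks. These are descriptions of a ranking on the same peaks.

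At least 1 run of 5 G or 5 C was found at 57.8% (56.3 to 59.3) of the peak centres and in 35.0% (34 to 36) of flanks. The other classes had such runs as well, at 54.5% of intronic, 57.9% of exonic, 64.9% of promoter and 70.8% of marked peaks. Part of that difference went with GC content. Among windows of 50 to 55% GC the shares were 64.3% and 50.0%, among those of 55 to 60% they were 71% and 63.4%, among those of 45 to 50% they were 47.3% and 37.7%, and among those of 40 to 45% they were 30.1% (25.3 to 35.3) and 27% (25 to 29), which overlap. The usual G-quadruplex pattern is 4 runs of at least 3 G (or of C) with up to 7 bases between runs. It was found at 19.1% of intergenic centres and 7.16% of their flanks. The other classes had it too, at 16.2% of intronic, 16.2% of exonic, 23.9% of promoter and 26.3% of marked peaks. By GC content the intergenic and flank shares were 30.8% and 22.9% at 55 to 60%, and 20.96% and 10.9% at 50 to 55%. They were 9.82% and 6.48% at 45 to 50%. At 40 to 45% they were 6.27% (4.09 to 9.48) and 3.53% (2.79 to 4.46). These separate intervals overlap at their ends, which does not by itself show that the shares were alike. No interval of their difference is given. The purine-rich strand held a median of 57.7% A and G at the peaks and 54.3% in flanks, and 57.0% at intronic and 55% at promoter peaks. The share with a run did not follow the strength of the peak, at 57.0% in the lowest-scoring 25% of the intergenic peaks and 58.1% in the highest-scoring 25%, with median folds of 1.99 and 3.05. Median GC content was 51.3% and 51.0% in these groups.

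**Figure D4:**
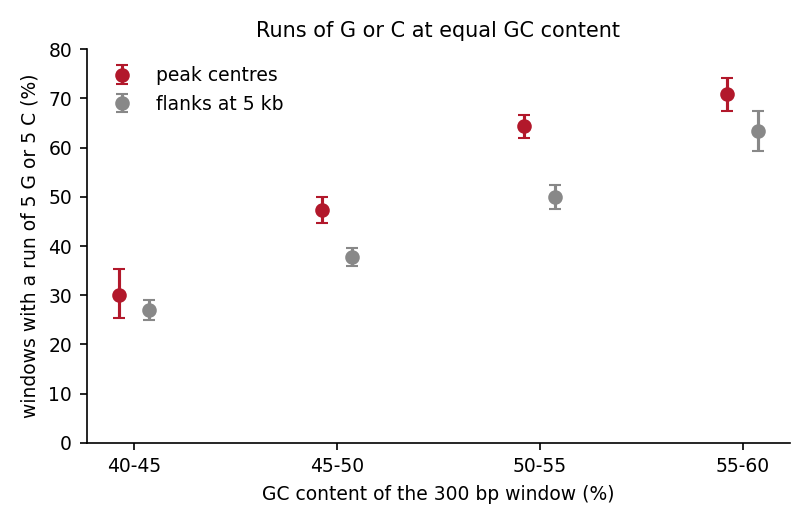
Share in percent of 300 bp windows with at least 1 run of 5 G or 5 C, by GC content of the window, at the centres of the intergenic PCGF5 peaks (red) and in flanks 5 kb away (grey), with 95% Wilson intervals. The peaks lie above the flanks by the most at 50 to 55% GC, with 64.3% against 50.0%, and the intervals overlap at 40 to 45% GC.

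Repeated DNA was less frequent at the peaks than in flanks, in every class of peak. Of 5 stretches of 31 bases taken from each window, the median occurred once in the genome for 97.1% of the intergenic peaks and 92.4% of flanks. It occurred 10 times or more for 0.631% and 4.59%. The single-copy share was 97.7% at intronic peaks and 96.0% in their flanks. At exonic, promoter and marked peaks it was 99.2%, 99.4% and 98.9%. Peaks are called from mapped reads, and the part of mapping in these differences was not tested.

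Recognition sequences of 18 transcription factors or factor families were counted in the same windows, on both strands and with overlaps between motifs allowed. GGAATG, the core of TEAD sites through which Hippo signalling acts, was in 21.3% of the intergenic peaks and 15.7% of flanks, a difference of 5.57 points (4.13 to 7.03), and in 18.2% of all 12013 PCGF5 peaks. AGGNGGC, part of the CTCF site, was in 21.3% and 15.9%, a difference of 5.38 points (3.94 to 6.85), with 27.3% over all PCGF5 peaks. The GC box GGGCGG was in 8.13% of peaks and 4.74% of flanks, but in 43.3% of promoter peaks and 17.9% of all PCGF5 peaks. The ZIC core CAGCAGG was 2.15 points (1.08 to 3.26) more frequent than in flanks, at 10.4%, with 11.5% over all PCGF5 peaks. Of these 4 motifs the TEAD core is 50% G and C, and the others are richer.

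Other motifs, most of them rich in A and T, were rarer than in flanks. The homeodomain core TAATTA was in 3.04% of the peaks and 7.49% of flanks, a difference of −4.46 points (−5.20 to −3.68), with 2.53% over all PCGF5 peaks. The GATA sequence AGATAA was in 11.8% and 15.3%, the YY1 sequence GCCATNTT in 4.02% and 6.08%, the AP-1 site TGANTCA in 7.29% and 8.83%, and the octamer ATGCAAAT of POU factors in 0.912% and 1.85%. Over all PCGF5 peaks these 4 were in 9.44%, 4.52%, 6.53% and 0.816%. For the NEUROG and NEUROD E-box CAGATG, at 23.4% and 23.1%, the interval of the difference (−1.25 to 1.85 points) included 0, as it did for the MYC and USF E-box CACGTG at 4.04% and 3.99% and for SOX sites (AACAAAG) at 6.40% and 7.33%. The REST, SMAD, E2F, CRE and NFI sequences were each in under 0.5% of peaks, and their intervals included 0 too.

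Very few of the intergenic peaks were covered by a peak of the other 7 libraries. In all, 4090 of the 4278 (95.6%) met no other list, 164 (3.83%) met at least 1 of the 6 remaining histone lists, and 151 met exactly 1 list. In wild-type mESCs, H2AK119ub1 peaks overlapped 55 intergenic peaks (1.29%, 0.989 to 1.67), beside 2.76% of all PCGF5 peaks of NPCs. H3K27me3 peaks of wild-type mESCs overlapped 41 (0.958%), beside 4.39% of all. In shPCGF5 mESCs the counts were 29 for H2AK119ub1 (0.678%, beside 1.93% of all) and 31 for H3K27me3 (0.725%, beside 3.89%). In shPCGF5 NPCs H2AK119ub1 peaks overlapped 12 (0.281%, beside 1.42%) and H3K27me3 peaks 49 (1.15%, beside 5.68%). PCGF5 peaks of mESCs overlapped 25 (0.584%, beside 0.658%). The share for all PCGF5 peaks includes the peaks marked in wild-type NPCs, and the rule left those out of the intergenic peaks.

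Against unmarked intronic peaks, none of the 7 shares differed beyond counting error. The widest gaps were for H2AK119ub1 of wild-type mESCs, which overlapped 1.70% of intronic peaks, with a difference of −0.412 points (−0.960 to 0.116), and for H3K27me3 of shPCGF5 NPCs, with one of 0.414 points (−0.013 to 0.843). Unmarked promoter peaks were overlapped more often by each H3K27me3 list, by 3.16% in wild-type mESCs, 2.66% in shPCGF5 mESCs and 3.27% in shPCGF5 NPCs. The intergenic shares were lower by 2.20 points (interval of the difference −2.98 to −1.51), 1.94 points (−2.66 to −1.31) and 2.13 points (−2.93 to −1.41). For the H2AK119ub1 lists and the mESC PCGF5 list, the interval of the difference from promoter peaks included 0. Promoter peaks were wider (median 579 bp against 341 bp) and overlap needed 1 bp only. The part of width in these differences was not tested.

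**Figure D5:**
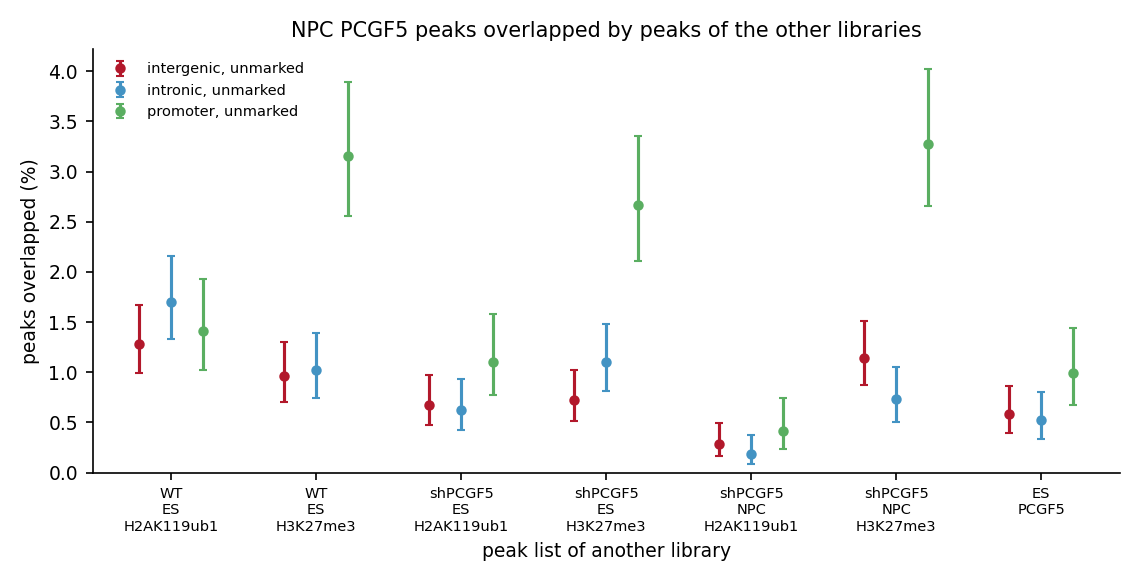
Share in percent of unmarked NPC PCGF5 peaks overlapped by at least 1 bp by a peak of each of 7 other libraries, for intergenic (red), intronic (blue) and promoter peaks (green), with 95% Wilson intervals. Intergenic and intronic shares overlap in every list, and promoter peaks stand higher in the 3 H3K27me3 lists.

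The peaks that did meet another list were examined by name. The peak at chr5:119973084-119973532, 147370 bp from the start of Tbx3, a T-box repressor of limb and heart development, met 5 of the 7 lists with a PCGF5 fold of 1.73, and was picked out for that count. A peak 28365 bp downstream of the start of Bmp10 (chr6:87407022-87407700, fold 4.44) met H2AK119ub1 (fold 3.86) and H3K27me3 (3.33) of wild-type mESCs and H3K27me3 of shPCGF5 mESCs (2.66). A peak upstream of Nkx1-1, a homeobox gene (chr5:33784875-33785627, fold 3.87), met H3K27me3 of wild-type mESCs with a fold of 6.69 and of shPCGF5 mESCs with a fold of 6.22. It lay 3271 bp from a mark of wild-type NPCs. Among the 49 peaks under H3K27me3 of shPCGF5 NPCs, the highest-scoring lay near Nefh, the heavy neurofilament gene, with a PCGF5 fold of 11.6 in a high-fold window and an H3K27me3 fold of 3.37. Others were near Hsd17b12, Rreb1 and Slc39a11, with H3K27me3 folds of 3.85, 4.78 and 4.68. Of the 49, 7 lay within 1 kb and 21 within 10 kb of a mark of wild-type NPCs, and their median gap was 18665 bp.

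The rule excluded peaks marked in wild-type NPCs, so a count of marks in shPCGF5 NPCs alone would be one-sided. Without the mark rule there were 4416 intergenic PCGF5 peaks, of which 138 were marked in wild-type NPCs, 55 by H2AK119ub1 and 121 by H3K27me3. Over these 4416, H3K27me3 was called in NPCs of both genotypes at 91, in wild type alone at 30 and in shPCGF5 alone at 52. H2AK119ub1 was called in both at 14, in wild type alone at 41 and in shPCGF5 alone at 20. In mESCs the counts were 19, 57 and 40 for H2AK119ub1 and 37, 45 and 40 for H3K27me3. Each comparison set 1 library against 1, and list length enters each count.

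Of the 25 intergenic peaks that were bound in mESCs as well, 16 (64.0%) lay in high-fold windows, and their median fold was 4.09. The 5 highest-scoring were all on chromosome 11, near Spred2, Gatsl3, Mtfp1, Rnf215 and again Spred2, with folds in NPCs from 9.74 to 18.6 and in mESCs from 5.84 to 15.3. Outside the windows 0.220% of the intergenic peaks met a PCGF5 peak of mESCs.

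Genes near the peaks were counted by transcript start. A start within 100 kb of at least 1 intergenic peak was found for 6291 of 22238 protein-coding genes (28.3%), which is the background for the gene lists below. Of neural progenitor transcription factors 14 of 29 (48.3%) had one. Hes1, the Notch target that keeps progenitors undifferentiated, had 6, Lhx2 had 5, and Hes5, another Notch target, and Sox9, a factor of glial and stem cell fate, had 3 each. The peak closest to Hes1 was 6629 bp from its start (chr16:30071957-30072152) with a fold of 2.01, and the highest fold among the 6 was 2.85. The Lhx2 peak printed above, 20149 bp from the start, had a fold of 3.25. The Sox9 peak lay at 15714 bp with a fold of 2.31. The median fold of all intergenic peaks was 2.24.

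Of mesoderm and endoderm regulators 7 of 18 (38.9%) had a peak within 100 kb. T, the Brachyury gene of the primitive streak, had 7, the closest at 4540 bp with a fold of 2.66 and a highest fold of 3.30. Eomes, Evx1 and Kdr had 1 each, with folds of 1.70, 2.12 and 3.19. Of Polycomb subunit genes 11 of 30 (36.7%) had one. Cbx8 and Cbx2, which encode chromodomain proteins of PRC1 and lie close together on chromosome 11, had 5 and 3, with a highest fold of 2.66 at each. Phf1, a PRC2 accessory protein, had 4.

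Of Nodal and TGF-beta pathway genes 9 of 26 (34.6%) had a peak. Acvr1b, an activin and Nodal receptor, and Inhbb, an activin subunit, had 5 each, with closest peaks at 5204 and 10849 bp and folds of 2.36 and 2.73. Nodal itself had 1, at 26310 bp with a fold of 1.89, and Lefty1 and Lefty2, its antagonists, shared 1 with a fold of 2.74. Of proneural and neuronal genes 8 of 25 (32%) had one, with 2 each for Atoh1, Dll1, Dll3 and Nes, and the highest fold at Neurod4 (3.28). Of BMP pathway genes 7 of 22 (31.8%) had one, among them Id2, a BMP target that inhibits bHLH factors, at 2800 bp with a fold of 3.11. Of pluripotency genes 5 of 19 (26.3%) had one, with 3 for Pou5f1, 2 each for Sall4 and Tet1, and 1 for Esrrb. Genes of these lists differ in the gene density around them, so that a share above 28.3% is a description of the list only. A peak within 100 kb of a start can also lie closer to that of another gene. No intergenic peak had Hes5, Phf1, Cbx8, Cbx2, Nodal, Lefty1, Dll3, Nes, Pou5f1 or Tet1 as its nearest gene. Each of the other genes named from these lists was nearest to at least 1. Within 500 kb a peak was found for 72.4% of the neural progenitor factors and 68.9% of all genes, and within 50 kb for 34.5% and 16.7%.

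A gene nearest to an intergenic peak carried a PCGF5 peak at its own promoter for 26.5% of the peaks (25.2 to 27.8). For intronic peaks the share was 32.3%, and the intergenic share was lower by 5.85 points (interval of the difference −7.84 to −3.87). Of all protein-coding genes, 13.7% had a PCGF5 promoter peak. That is a share of genes, each counted once, whereas the shares of peaks count a gene once for every peak nearest to it. In all, 2615 genes were nearest to at least 1 intergenic peak, 1738 of them to 1 only and 92 to 5 or more. Cadm1 led with 21 peaks, all in a high-fold window, with a median fold of 2.55. Cyp26b1, Spred2 and Zmiz1, a coactivator of the PIAS family, had 16 each, with median folds of 2.55, 17.9 and 2.40, and those of Spred2 were all in a high-fold window. Vrk1, C130026L21Rik and Rplp1 followed with 13, 12 and 11, and C80913, Cd83 and Rps24 with 10 each.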

How the data were processed

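ChIP-seq peak lists of 10 libraries were analysed. According to the methods and labels, the authors trimmed reads, mapped them to mm9 with Bowtie2, discarded duplicates and ran MACS2 2.1.0 on each library. The PCGF5 peaks were called at a p-value of 0.0001 and kept at a q-value under 0.01, and libraries were not pooled. The names of the NPC PCGF5 peaks contain the word broad. For histone marks chromatin was cut with micrococcal nuclease, for Flag it was sonicated after EGS and formaldehyde crosslinking. The Drosophila spike-in does not enter peak lists. Each deposited peak carries a score, a −log10 p-value, a −log10 q-value and a fold enrichment (a ratio to local background), as the caller of the authors wrote them. No list gives read totals, so depth is unknown.

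Peaks were classed with GENCODE M1 on NCBIM37 (mm9), and overlap was at least 1 bp. Marked peaks were set apart first, then promoter, exon, intron and intergenic peaks by their centre. Counts of 9 lists were compared with bedtools 2.31.1 and 0 differed. Sequence was read from NCBIM37 in windows of 300 bp. The genome held no repeat masking, so the planned repeat share was replaced by copies of 31-mers, 5 per window. Shares carry Wilson and differences Newcombe 95% intervals. Functions were tested on simulated data. Scripts used Python 3.11.15, pandas 2.3.3, scipy 1.17.1 and pysam 0.24.0. The peaks, gene lists, motifs and settings were chosen with earlier results of these data known. Named peaks were the 10 highest-scoring, the 10 highest outside high-fold windows, the 5 widest, the 5 densest stretches, up to 5 per other list, 3 on each side of the 2500 bp limit and 4 nearest non-coding starts. Named genes were up to 4 per list with most peaks within 100 kb and the 10 nearest to most peaks. A few further genes (Eomes, Kdr, Nodal, Lefty1, Lefty2, Neurod4, Tbx3) were named after their values were seen. Of the genes in the lists, Sox1, Map2 and Tfcp2l1 were not found under these symbols. The 6-mers, G runs, CpG-rich limit and settings outside high-fold windows were added after the data had been examined. Some items that these rules name are not reported here.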

Additional observations from a re-analysis of the deposited data

How the results depend on the processing

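No paired analysis was possible because every group had 1 library. The number of intergenic peaks was 4278 and lay between 3487 and 4467 under other mark, promoter, gene and merging rules, and was 2135 in the higher-scoring 50% of the list. Where at least 50% of a peak had to be covered, the shares overlapped fell to 0.327% (H2AK119ub1) and 0.257% (H3K27me3) for wild-type mESCs, 0.210% and 0.0935% for shPCGF5 mESCs, 0.0701% and 0.491% for shPCGF5 NPCs and 0.374% for PCGF5 of mESCs. With the higher-scoring 50% of the other list they were 0.631%, 0.304%, 0.140%, 0.397%, 0.0701% and 0.421% in the same order for the histone lists. The mESC PCGF5 share was 0.937% in the higher-scoring 50% of the NPC list and 0.220% outside high-fold windows. The median GC content exceeded that of flanks by 5.41 points over whole peaks, 5.33 in the higher-scoring 50% and 5.33 with flanks at 20 kb, and the CpG ratio differed by −0.0227 over whole peaks. Genes with a peak numbered 3718 within 50 kb, 15331 within 500 kb and 3451 for the higher-scoring 50%. The excess of G or C runs over flanks was 3.10 points at 40 to 45% GC, where its interval included 0. Of 72 motif settings, 67 kept the interval on the same side of 0 or still including it, and in 6 of these the sign changed while both intervals included 0. AP-1 was no longer lower beyond counting error in the higher-scoring 50% or with flanks at 20 kb, and SOX sites became lower beyond it in 3 settings.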
